A study of Mus musculus with 2 samples.

Results

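Interleukin 6 (IL-6) family signalling was described through 8 genes out of the 32285 in the deposited tables: the ligands Il6, Lif and Osm, the receptors Il6ra, Il6st and Osmr, the feedback inhibitor Socs3 and the acute-phase pentraxin Ptx3. The genes were matched by symbol. They were selected on their levels in these classes and their ratios between these libraries, so their differences between the libraries are given as descriptions. All 8 had UMIs (unique molecular identifiers, 1 per captured transcript) in both libraries.

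The study profiled epididymal white fat, a visceral depot, through its stromal vascular fraction, which is what remains once mature adipocytes have been floated off, by droplet single-cell RNA-seq of transcript 3' ends. The Camk2d-CKO library came from mice with a myeloid conditional knockout of Camk2d, the gene of the delta subunit of calcium/calmodulin-dependent kinase II, fed a high-fat diet for 10 weeks. The WT library came from wild-type mice on the same diet for 10 weeks. With 1 library per genotype there is no replicate spread and no test between genotypes, and every interval below covers counting error only. The labels give neither the promoter that drives the deletion nor the deleted exons, and they do not say how many animals a library holds. They place both libraries in 1 batch, and a description field names embryonic hindlimb where all other fields name adipose tissue.

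In this family each ligand assembles a receptor around the shared signalling chain encoded by Il6st. IL-6 binds the chain encoded by Il6ra, which cells carry on their surface or receive in shed form, oncostatin M (Osm) binds the chain encoded by Osmr, and leukaemia inhibitory factor (Lif) binds the chain encoded by Lifr. The complexes activate Janus kinases and STAT3, STAT3 induces Socs3, and the SOCS3 protein docks on the shared chain and shuts the signal off. In obese fat, stromal progenitors and macrophages are both known sources of these ligands.

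The Camk2d-CKO library held 10631 barcodes with a median of 7385 UMIs, and the WT library held 15555 barcodes with a median of 3094 UMIs. After filtering, 9184 and 14852 cells were kept, and marker gates placed 8209 Camk2d-CKO cells (89.4%) and 10075 WT cells (67.8%) in a class. Markers of 2 lineages met in 6.79% of kept Camk2d-CKO barcodes and 27.9% of kept WT barcodes, and 48 barcode sequences occurred in both libraries. 9 classes had at least 50 cells in each library, and all markers of its own panel were detected in every one of them. The largest were adipose progenitors, with 4211 Camk2d-CKO and 3704 WT cells, and macrophages, with 1361 Camk2d-CKO and 2495 WT cells. Camk2d itself stood at 25.5 CPM (95% Poisson interval 23.2 to 28.0) in Camk2d-CKO macrophages and at 47.1 CPM (44.2 to 50.2) in WT macrophages, where CPM is the usual depth-scaled count, taken over all UMIs of the class. In the other myeloid classes the intervals overlapped, at 56.1 CPM (43.7 to 70.9) in Camk2d-CKO and 51.8 CPM (38.6 to 68.1) in WT monocytes and at 18.6 CPM (13.3 to 25.3) and 21.5 CPM (15.4 to 29.3) in dendritic cells. A 3' tag outside the deleted exons would not check the deletion.

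Il6 was mostly a progenitor transcript in both genotypes. Progenitor-gated cells, the fibroblast-like cells marked by Pdgfra, Dcn and collagen genes, held 11994 of 13084 gated Il6 UMIs in the Camk2d-CKO library (91.7%, Clopper-Pearson 95% interval 91.2 to 92.1) and 1646 of 1915 in the WT library (86.0%, 84.3 to 87.5). These cells contributed 54.4% of all gated UMIs in the Camk2d-CKO library and 39.1% in the WT library, so their share of Il6 exceeded their share of RNA in both. The level of Il6 in them was 296 CPM (291 to 302) in the Camk2d-CKO library, against 71.8 CPM (68.4 to 75.4) in the WT library. The ratio was 4.13-fold, a log2 of 2.04 (95% conditional interval 1.97 to 2.12).

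Detection followed the level. With every cell thinned to 2000 UMIs, 1030 of 3787 Camk2d-CKO progenitors (27.2%, 25.8 to 28.6) and 308 of 3257 WT progenitors (9.46%, 8.47 to 10.5) held an Il6 UMI, and 424 and 447 shallower cells were left out. Without thinning the shares were 44.6% and 17.3%. Erythroid-gated cells, which should lack Il6, gave thinned shares of 3.25% in the Camk2d-CKO library and 2.36% in the WT library. Their median depth was 1179 and 1895.5 UMIs, against 10025 and 6066.5 UMIs in progenitors. The progenitor shares lay well above that background in both libraries.

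Monocytes, blood endothelial, dendritic, natural killer and B cells held less Il6 than progenitors in both libraries. Monocytes stood at 27.3 CPM (18.9 to 38.1) in the Camk2d-CKO and 20.3 CPM (12.4 to 31.4) in the WT library, and blood endothelial cells at 12.7 CPM (6.07 to 23.3) and 21.0 CPM (10.8 to 36.6), each pair within overlapping intervals. Dendritic, natural killer and B cells lay between 4.84 and 8.96 CPM in both libraries, where progenitor RNA carried into the gate, estimated below, would give 3.18 to 4.83 CPM.

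Il6 was spread unevenly over the progenitors. The tenth of cells with most Il6 held 62.0% of the Il6 UMIs of the class in the Camk2d-CKO library and 83.5% in the WT library, and the highest single cell held 67 and 19 UMIs.

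Lif, a ligand known for keeping stem cells undifferentiated, was scarce. It reached 5.56 CPM (4.86 to 6.33) in Camk2d-CKO progenitors and 3.14 CPM (2.46 to 3.96) in WT progenitors, both under the 10 CPM mean that was required before a ratio was counted. Progenitors held 225 of 325 gated Lif UMIs (69.2%) in the Camk2d-CKO library and 72 of 102 (70.6%) in the WT library. Macrophages came next, with 73 Lif UMIs in the Camk2d-CKO library and 10 in the WT library. No Lif UMI was found in blood endothelial cells of either library, which, at 3 UMIs of the class total, allows up to 3.80 CPM in Camk2d-CKO and 5.24 CPM in WT cells.

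Most gated Osm UMIs lay in macrophages. Macrophages held 818 of 1099 gated Osm UMIs in the Camk2d-CKO library (74.4%, 71.7 to 77.0) and 319 of 473 in the WT library (67.4%, 63.0 to 71.7). Monocytes reached 46.5 CPM (35.3 to 60.1) in the Camk2d-CKO library and 19.3 CPM (11.6 to 30.1) in the WT library, which did not differ from macrophages of the same library beyond counting error. Progenitors stood at 1.98 and 2.27 CPM, so progenitors as a class held almost no Osm. Dendritic cells were also low, at 3.72 CPM in Camk2d-CKO and 4.84 CPM in WT. Natural killer cells held more, at 18.3 and 10.1 CPM, and T cells stood at 9.40 and 6.71 CPM. Cd4-positive T cells reached 23.4 CPM (40 UMIs) in Camk2d-CKO and 21.8 CPM (4 UMIs) in WT.

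**Figure D1:**
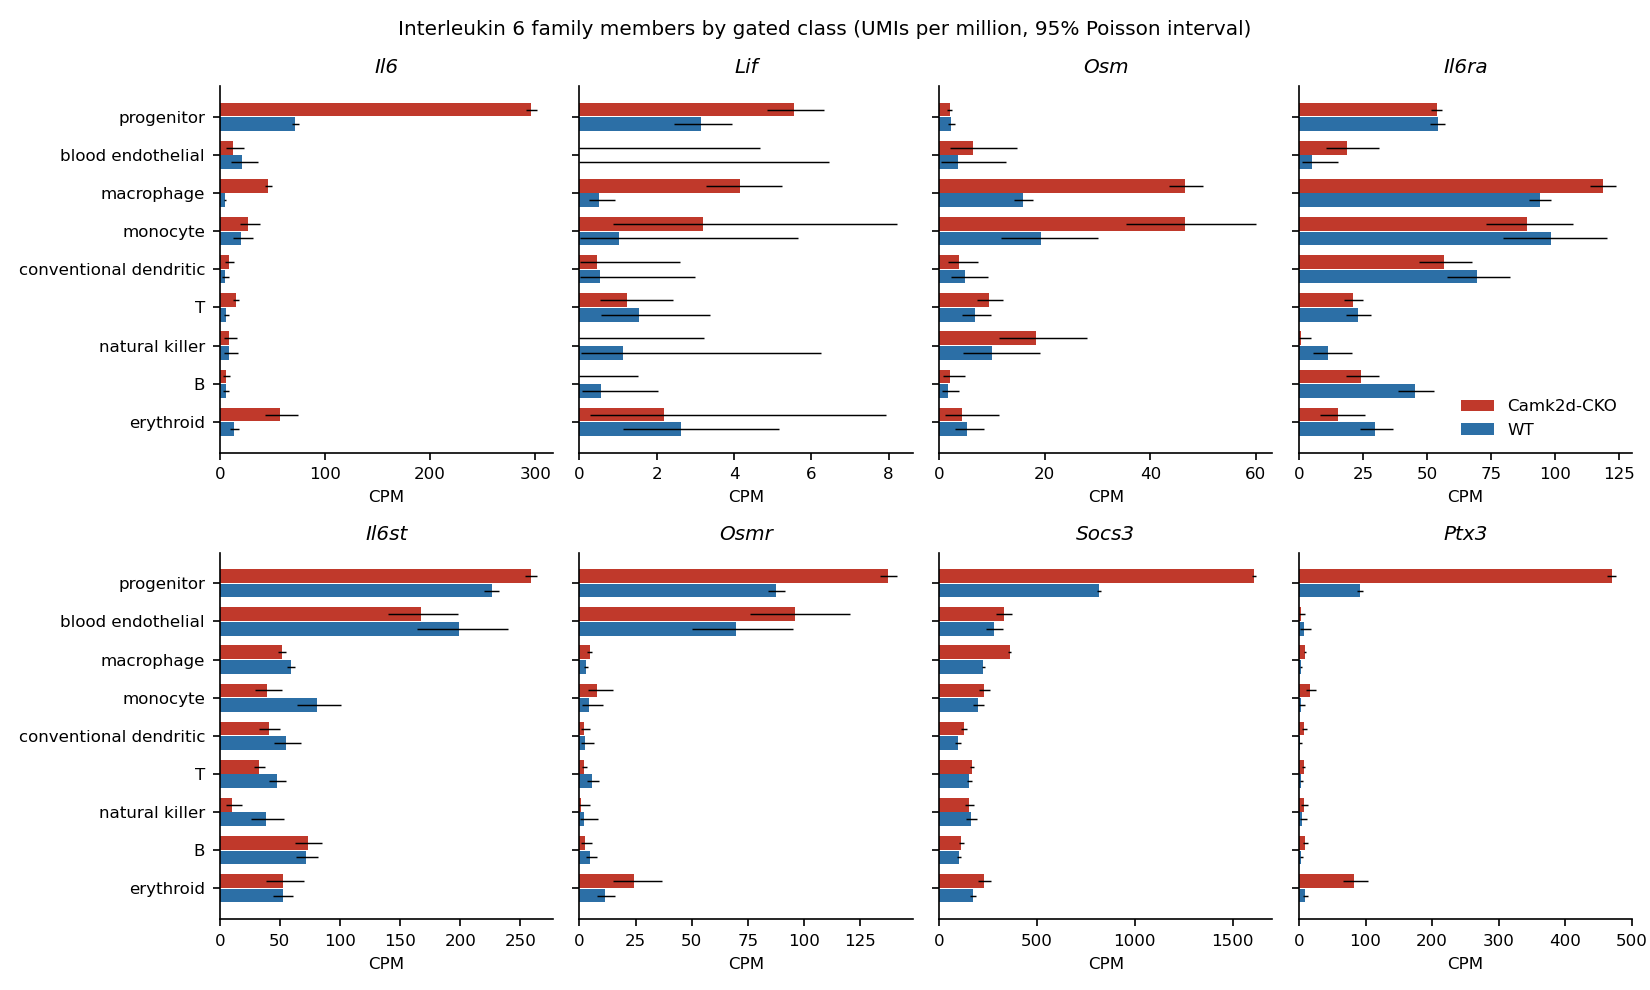
CPM of the 8 genes in the 9 gated classes, with the Camk2d-CKO library in red above the WT library in blue and 95% Poisson intervals as lines. Il6, Osmr, Socs3 and Ptx3 peak in progenitors, Osm in macrophages and monocytes, and Il6ra in macrophages and monocytes.

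The receptor chains overlapped in progenitors, which held 95.9% of gated Osmr UMIs in the Camk2d-CKO and 90.7% in the WT library, 85.4% and 69.7% of gated Il6st UMIs, and 45.6% and 33.1% of gated Il6ra UMIs. Per UMI of the class, Il6ra, the IL-6 binding chain, was highest in mononuclear phagocytes: macrophages held 119 CPM (114 to 124) in the Camk2d-CKO library and 94.1 CPM (89.9 to 98.4) in the WT library, and monocytes held 89.0 CPM (73.2 to 107) and 98.5 CPM (79.9 to 120). In the WT library the macrophage and monocyte levels did not differ beyond their intervals. Dendritic cells at 56.7 CPM (47.1 to 67.7) and progenitors at 53.8 CPM (51.5 to 56.1) followed in the Camk2d-CKO library, with overlapping intervals. B, T and natural killer cells had lower values in both libraries, the WT B-cell interval overlapping that of WT progenitors.

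The progenitor level of Il6ra did not differ between the libraries beyond counting error, at 53.8 CPM in Camk2d-CKO and 54.2 CPM in WT cells (log2 ratio -0.01, -0.11 to 0.09). B cells held 24.4 CPM (18.5 to 31.4) in the Camk2d-CKO library and 45.3 CPM (38.6 to 52.9) in the WT library, a log2 ratio of -0.90 (-1.35 to -0.46). The B-cell ratio ran opposite to the ratio of 0.34 over the whole macrophage class, and neither reached 2-fold. The direction of the macrophage ratio changed inside the class. By joint cluster, described below, it was -0.18 (-0.33 to -0.03), 0.26 (-0.06 to 0.58) and 0.41 (0.27 to 0.54) in clusters 6, 7 and 8.

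Il6st, the shared signalling chain, was a stromal and endothelial transcript. It stood at 259 CPM (254 to 264) in Camk2d-CKO and 226 CPM (220 to 232) in WT progenitors, and at 167 CPM (140 to 198) in Camk2d-CKO and 199 CPM (164 to 239) in WT blood endothelial cells. Macrophages held 51.8 CPM (48.5 to 55.3) and 59.5 CPM (56.2 to 63.0). The progenitor ratio was a log2 of 0.19 (0.15 to 0.24), in a class where the median over 7995 genes was -0.09. 2 small classes had less in the Camk2d-CKO library. Monocytes held 39.3 CPM (29.1 to 51.9) against 81.3 CPM (64.4 to 101) in WT, and natural killer cells held 10.5 CPM (5.41 to 18.3) against 38.1 CPM (26.4 to 53.2) in WT. Il6st was the 1 family gene with a mean of at least 10 CPM that was at least 2-fold lower in either class. Over all genes at that mean, 6.18% of 7507 in monocytes and 7.46% of 7400 in natural killer cells were lower. In natural killer cells 2.7% were higher. The Il6st calls rested on 49 and 80 UMIs in monocytes and on 12 and 34 UMIs in natural killer cells. Il6ra in natural killer cells, under that mean, stood at 0.873 CPM (1 UMI) in Camk2d-CKO and 11.2 CPM (10 UMIs) in WT. Carried progenitor RNA, estimated below, would give 3.46 CPM of Il6st in Camk2d-CKO and 15.2 CPM in WT natural killer cells. In monocytes it would give 6.61 and 14.3 CPM of Il6st, and its part in these differences was not tested.

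Osmr, the oncostatin M chain, was confined among the 9 classes to progenitors and blood endothelial cells at levels over 25 CPM. Progenitors held 138 CPM (134 to 141) in the Camk2d-CKO library and 87.6 CPM (83.8 to 91.5) in the WT library, a ratio of 1.57-fold (log2 0.65, 0.58 to 0.73). Blood endothelial cells held 96.2 and 69.9 CPM, a log2 ratio of 0.46 whose interval (-0.11 to 1.05) includes 0. Macrophages, the main holders of Osm, stood under 5 CPM in both libraries, on 79 and 58 UMIs. Most gated Osm UMIs thus lay in macrophages and most gated Osmr UMIs in progenitors, in both libraries.

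Of the 6 family genes with a mean of at least 10 CPM in progenitors, 2 were at least 2-fold higher in the Camk2d-CKO library, Il6 and Ptx3, and none was lower. Over all 7995 genes at that level in the class, 0.976% were at least 2-fold higher and 2.84% were at least 2-fold lower. Since the genes were listed with these results known, the count is given without reading anything from it. By size of the ratio Ptx3 stood 5th, Il6 9th, Socs3 82nd and Osmr 212th from the top of the 7995.

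Ptx3 encodes a long pentraxin, a soluble pattern recognition molecule that stromal and myeloid cells release in inflammation. It was a progenitor transcript here, at 469 CPM (463 to 476) in the Camk2d-CKO library and 91.6 CPM (87.7 to 95.6) in the WT library, a ratio of 5.13-fold (log2 2.36, 2.29 to 2.42). Of thinned progenitors, 1102 of 3787 (29.1%) held a Ptx3 UMI in the Camk2d-CKO library and 315 of 3257 (9.67%) in the WT library. Macrophages held 8.95 CPM (7.61 to 10.5) and 3.09 CPM (2.37 to 3.96). Progenitor RNA carried into the macrophage gate, estimated from progenitor markers at 1.79% of their own level in the Camk2d-CKO library and 4.01% in the WT library, would give 8.42 and 3.68 CPM, which is 94.0% and 119% of what was seen.

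Socs3, the inhibitor that IL-6 signalling itself induces, was widespread. Progenitors led with 1610 CPM (1597 to 1622) in the Camk2d-CKO library and 816 CPM (805 to 828) in the WT library, a ratio of 1.97-fold (log2 0.98, 0.96 to 1.00). Macrophages held 361 CPM (352 to 370) and 227 CPM (220 to 233), and blood endothelial cells held 332 CPM (293 to 374) and 281 CPM (240 to 328). T, natural killer and B cells lay between 103 and 169 CPM in both libraries. The macrophage ratio was 1.59-fold (log2 0.67, 0.62 to 0.73), but its direction changed inside the class. By joint cluster the log2 ratio was -0.20 (-0.28 to -0.12), -0.86 (-1.29 to -0.45) and 1.11 (1.02 to 1.20) in clusters 6, 7 and 8. Among macrophages of 2000 to 5000 UMIs it was -0.57 (-0.92 to -0.23), and among those of at least 20000 UMIs it was 2.14.

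The progenitor differences were then followed inside the class. Progenitors were split by marker genes into interstitial cells, the Dpp4 and Pi16 expressing reservoir, and committed cells, which carry Col15a1, Pparg and Lpl. Il6 stood at 290 CPM in Camk2d-CKO and 51.9 CPM in WT interstitial cells, and at 275 CPM in Camk2d-CKO and 83.5 CPM in WT committed cells. Ptx3 stood at 459 and 93.0 CPM in interstitial and at 437 and 87.8 CPM in committed cells. Both genes were thus several-fold higher in the Camk2d-CKO library in either kind of progenitor. Osmr was more of a committed-cell transcript, with 159 CPM in Camk2d-CKO and 112 CPM in WT committed cells, and 94.8 CPM in Camk2d-CKO and 58.0 CPM in WT interstitial cells.

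Joint clustering of both libraries, run without the 8 genes, gave 3 progenitor clusters with at least 50 gated cells in each library. Cluster 0 held 67.0% of Camk2d-CKO but 32.5% of WT progenitors, cluster 1 held 10.6% and 19.9%, and cluster 2 held 14.1% and 24.9%. Il6 stood at 335 CPM in Camk2d-CKO and 120 CPM in WT cells of cluster 0, at 60.2 and 20.2 CPM in cluster 1, and at 243 and 50.6 CPM in cluster 2. Ptx3 stood at 527 and 131 CPM in cluster 0, at 67.2 and 21.4 CPM in cluster 1, and at 420 and 97.6 CPM in cluster 2. Il6 and Ptx3 were higher in the Camk2d-CKO library within each of the 3 clusters, by log2 ratios of 1.48 to 2.27 for Il6 and 1.65 to 2.11 for Ptx3.

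Socs3 differed less. It stood at 1855 CPM in Camk2d-CKO and 1299 CPM in WT cells of cluster 0 (log2 0.51, 0.48 to 0.54) and at 1243 and 648 CPM in cluster 2 (log2 0.94, 0.89 to 0.99). In cluster 1 it was lower in the Camk2d-CKO library, at 212 CPM against 266 CPM in WT (log2 -0.32, -0.47 to -0.18). With equal weight for each cluster the log2 ratio of Socs3 was 0.58. The share of progenitors in cluster 0, where Socs3 was highest, differed between the libraries.

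**Figure D2:**
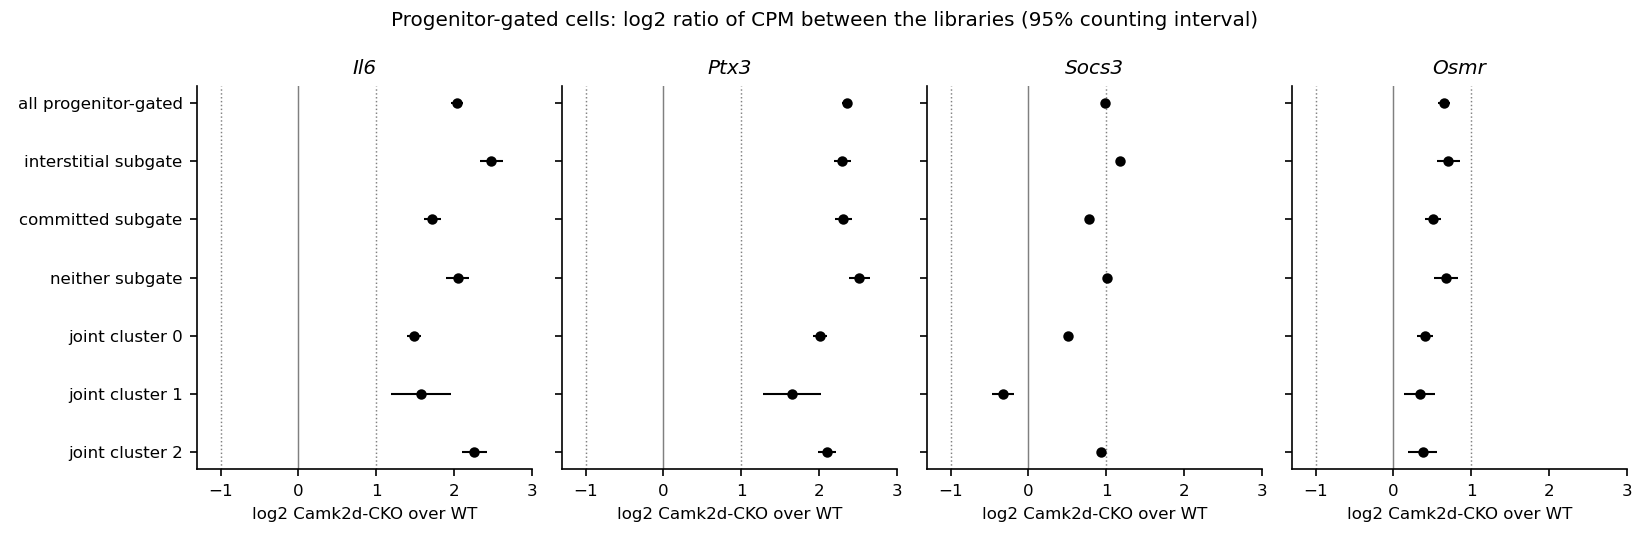
Log2 ratio of CPM, Camk2d-CKO over WT, for 4 genes in progenitor-gated cells, in marker subgates and in the joint clusters, with 95% counting intervals; dotted lines mark 2-fold. Il6 and Ptx3 lie beyond 2-fold in every row, Osmr between 0 and 1, and Socs3 below 0 in cluster 1.

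A list of immediate early and handling genes, known to switch on during enzymatic tissue digestion and including Fos, Jun, Egr1 and the heat-shock genes Hspa1a and Hspa1b, moved with these differences as a sum. Summed over the 10 listed genes they stood at 21362 CPM in Camk2d-CKO and 13352 CPM in WT progenitors, and 0 of the 10 were at least 2-fold apart (median log2 0.58). The heat-shock genes differed less, with Hspa1a at 73.4 CPM in Camk2d-CKO and 66.2 CPM in WT progenitors and Hspa1b at 53.6 and 69.5 CPM. By cluster the sums were 24302 CPM in Camk2d-CKO and 18754 CPM in WT cells of cluster 0, 8105 and 8718 CPM in cluster 1, and 15256 and 10633 CPM in cluster 2. In cluster 1, where the sum was no higher in Camk2d-CKO, log2 ratios were 1.58 for Il6, 1.65 for Ptx3 and -0.32 for Socs3. The part of the listed genes in the Il6, Ptx3 and Socs3 differences, or in forming the clusters, was not tested.

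The differences were also read within bins of depth. Among progenitors of 500 to 2000 UMIs, Il6 stood at 191 CPM in Camk2d-CKO and 62.2 CPM in WT cells, and among those of 10000 to 20000 UMIs at 328 and 65.4 CPM. The shallowest kept cell had 500 UMIs in the Camk2d-CKO and 1276 UMIs in the WT library, so the lowest bin is not matched in depth. The log2 ratio of Il6 lay between 1.59 and 2.33 in the 5 depth bins. Ptx3 and Socs3 were higher in the Camk2d-CKO library in each bin too, and Ptx3 rested on 2 WT UMIs in the deepest. Macrophage markers in the progenitor gate stood at 1.26% of their macrophage level in the Camk2d-CKO library and 4.98% in the WT library, and mitochondrial UMIs made up 2.09% and 2.75%.

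**Figure D3:**
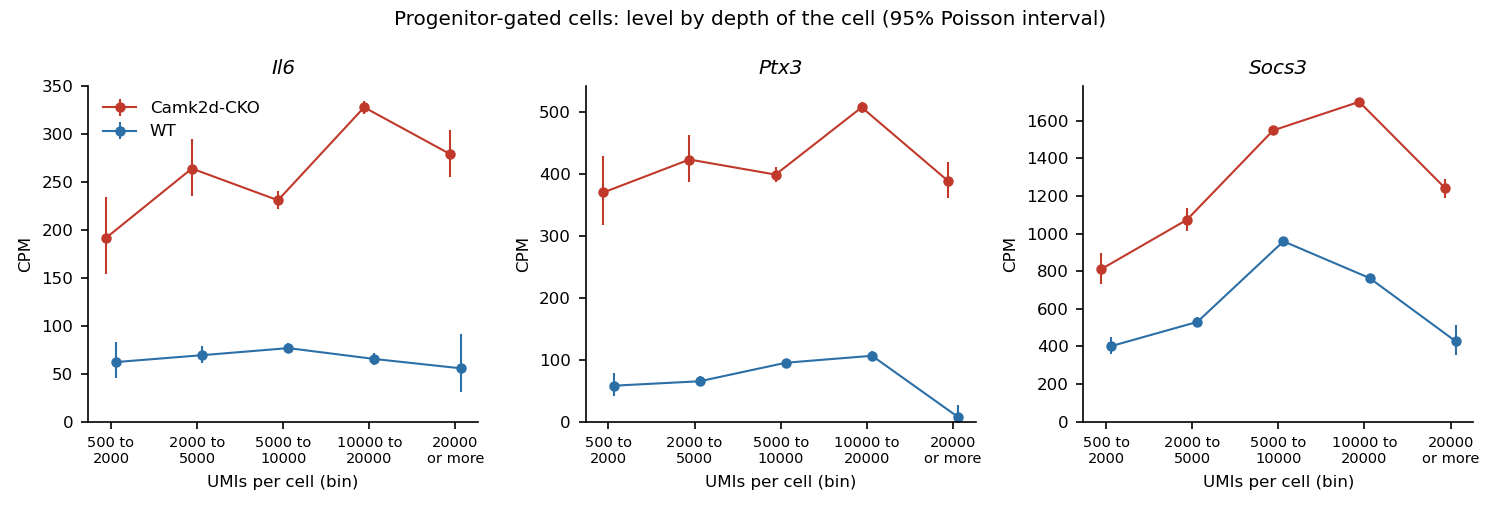
CPM of Il6, Ptx3 and Socs3 in progenitor-gated cells binned by UMIs per cell, Camk2d-CKO in red and WT in blue, with 95% Poisson intervals. The red points lie above the blue ones in every bin, with Il6 between 191 and 328 CPM in Camk2d-CKO cells and between 55.7 and 76.8 CPM in WT cells.

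The genes also met in the same cells. After thinning, Ptx3 was found in 44.0% of Il6-positive and 23.5% of Il6-negative Camk2d-CKO progenitors, and in 22.4% of Il6-positive and 8.34% of Il6-negative WT progenitors. Socs3 was found in 92.7% and 77.3% of these Camk2d-CKO cells and in 83.1% and 59.1% of these WT cells. Among the receptors, Osmr was found in 27.5% of Il6-positive and 22.0% of Il6-negative Camk2d-CKO progenitors, and in 25.0% and 14.7% in WT. Il6st was found in 42.5% and 38.7% in the Camk2d-CKO library and in 38.3% and 34.7% in WT. Il6ra showed no such gap in the Camk2d-CKO library, at 10.6% of both Il6-positive and Il6-negative progenitors, and stood at 12.7% and 10.6% in WT.

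The same pairing appeared across classes. Over 18 points, the 9 classes in each library, the 5 genes most correlated with Il6 on the log2(CPM + 1) scale were Ptx3 (Pearson r 0.89), Socs3 (0.89), Cebpd (0.87), Garnl3 and Errfi1 among 9099 genes. Those most like Socs3 were Cebpd (0.94), Pnp, Maff, Tmem159 and Man2a1, and those most like Ptx3 were Avpr1a (0.93), Inmt, Tnfaip6, Sgcd and Il6. Osmr lay nearest to Igfbp7 (0.97), Cxcl12, Ltbp4, Abca8b and Plpp3, and Il6st to Pde8a (0.95), Tpst1, Tril, Jun and Rgmb. Il6ra lay nearest to Ifngr2 (0.90), P2rx4, Ctsh, Ifi30 and Scpep1, Osm to F10 (0.88), Naip2, Lilrb4a, Tmem164 and 2310022A10Rik, and Lif to Ang (0.83), Mt2, Dram1, F3 and Pygl. The points share 2 libraries and their free RNA, so these values only describe likeness.

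Ptx3 and Socs3 were the genes most correlated with Il6 across the classes. Neither Il6 nor Ptx3 was among the genes listed as most like Socs3. The library ratio of Socs3 also did not follow those of Il6 and Ptx3 in every progenitor cluster. The 250 bases before the RefSeq starts of Il6, Ptx3 and Socs3 are shown, from build GRCm38.p6. Capitals mark matches to TTGCNNAA, a C/EBP consensus, or to TTCNNNGAA, a STAT consensus, on either strand. Il6 lies at chr5:30013114-30019981 on the plus strand (Ensembl ENSMUSG00000025746), Ptx3 at chr3:66219910-66225805 on the plus strand (ENSMUSG00000027832) and Socs3 at chr11:117966079-117970047 on the minus strand (ENSMUSG00000053113), by GENCODE for GRCm38.
Il6: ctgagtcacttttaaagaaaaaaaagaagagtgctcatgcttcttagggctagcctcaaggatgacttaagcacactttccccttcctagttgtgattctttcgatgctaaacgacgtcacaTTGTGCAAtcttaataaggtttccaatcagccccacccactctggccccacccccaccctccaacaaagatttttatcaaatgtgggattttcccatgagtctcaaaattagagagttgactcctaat
Ptx3: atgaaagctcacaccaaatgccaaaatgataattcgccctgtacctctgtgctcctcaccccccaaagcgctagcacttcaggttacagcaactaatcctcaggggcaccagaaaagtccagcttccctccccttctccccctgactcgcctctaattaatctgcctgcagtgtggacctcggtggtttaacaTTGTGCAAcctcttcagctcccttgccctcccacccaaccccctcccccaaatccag
Socs3: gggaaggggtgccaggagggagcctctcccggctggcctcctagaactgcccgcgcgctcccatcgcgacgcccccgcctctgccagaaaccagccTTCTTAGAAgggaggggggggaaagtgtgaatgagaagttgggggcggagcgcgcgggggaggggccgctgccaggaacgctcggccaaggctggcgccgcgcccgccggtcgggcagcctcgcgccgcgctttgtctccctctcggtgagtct
The windows are chr5:30012864-30013113 (+) for Il6, chr3:66219637-66219886 (+) for Ptx3 and chr11:117969367-117969616 (-) for Socs3, the last of which lies inside the longer GENCODE gene. Il6 and Ptx3 carry the same C/EBP match, TTGTGCAA, starting 128 and 57 bases before the start, and Socs3 carries a STAT match starting 154 bases before it. Of 32851 promoters of this length in the table, 9.56% held the C/EBP consensus and 7.02% the STAT consensus. Of the 7 family genes with a promoter in the table, all but Osm, no others held either. TGACGTCA, the cAMP response element, was also searched and matched in none of the 7 (1.55% of all promoters), and TGANTCA, the AP-1 site, matched in Il6 and Lif (6.75%). The NF-kB consensus matched in Il6, Il6ra, Lif, Osmr and Socs3 (45.8%). A match describes letters and shows no binding.

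The other genes of the pathway were counted by lists. Of 6 listed regulators of the Il6 gene and message in progenitors, 4 were at least 2-fold higher in the Camk2d-CKO library and none was lower, with a median log2 of 1.25 beside -0.09 over all genes. The lists were chosen with earlier results of these data known, and 0.976% of the 7995 genes in progenitors were higher and 2.84% lower by the same rule. Cebpd, a C/EBP transcription factor, stood at 2272 CPM in Camk2d-CKO and 821 CPM in WT progenitors, and Cebpb at 666 and 290 CPM. Nfkbiz, a nuclear cofactor of NF-kB needed for Il6 induction in macrophages, stood at 624 and 255 CPM. Zfp36, whose protein tristetraprolin degrades Il6 mRNA, stood at 3091 and 1079 CPM. The pair just short of 2-fold were Arid5a, a stabiliser of Il6 mRNA, at 106 and 53.7 CPM, and Zc3h12a, the Regnase-1 gene, at 64.0 and 33.7 CPM. Activators and repressors of the message were thus higher together. The immediate early and handling genes were higher as a sum in these progenitors too, and their part in this was not tested.

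No gene of the signalling core reached 2-fold. Over all 7995 genes at a mean of 10 CPM or more in progenitors, 3.81% were 2-fold apart either way. The lack of calls in these short lists is therefore not read as a result. None of the 6 kinase and STAT genes over 10 CPM was 2-fold apart (median log2 0.14), with Jak1 at 312 CPM in Camk2d-CKO and 307 CPM in WT progenitors and Stat3 at 182 and 142 CPM. Of the other receptors Il11ra1 stood at 168 and 161 CPM and Lifr at 98.2 and 77.3 CPM, and none was 2-fold apart (median log2 0.20). The sheddases Adam10, at 40.9 and 53.2 CPM, and Adam17, at 40.2 and 50.6 CPM, which can release soluble IL-6 receptor, had a median log2 of -0.35. None of the 8 other ligands reached 10 CPM in progenitors.

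Of 8 genes that restrain the signal, 1 was at least 2-fold lower and none higher (median log2 -0.01), beside the 2.84% and 0.976% over all genes. This was Ptpn6, a phosphatase of haematopoietic cells, at 3.06 CPM in Camk2d-CKO and 18.5 CPM in WT progenitors, beside the macrophage marker levels of 1.26% and 4.98% given above, whose part in it was not tested. Socs1, the most abundant of them by the mean of both libraries, stood at 92.7 and 59.2 CPM, and Ptpn11, the gene of the phosphatase SHP2, at 65.1 and 69.3 CPM. Of 10 STAT3 targets over 10 CPM, out of 12 listed, 1 was at least 2-fold higher and 1 lower (median log2 0.41), beside the same 0.976% and 2.84%. Myc stood at 314 CPM in Camk2d-CKO and 96.3 CPM in WT cells, Timp1, an inhibitor of matrix proteases, at 66.9 and 180 CPM, and Junb, the most abundant, at 3629 and 2409 CPM.

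**Figure D4:**
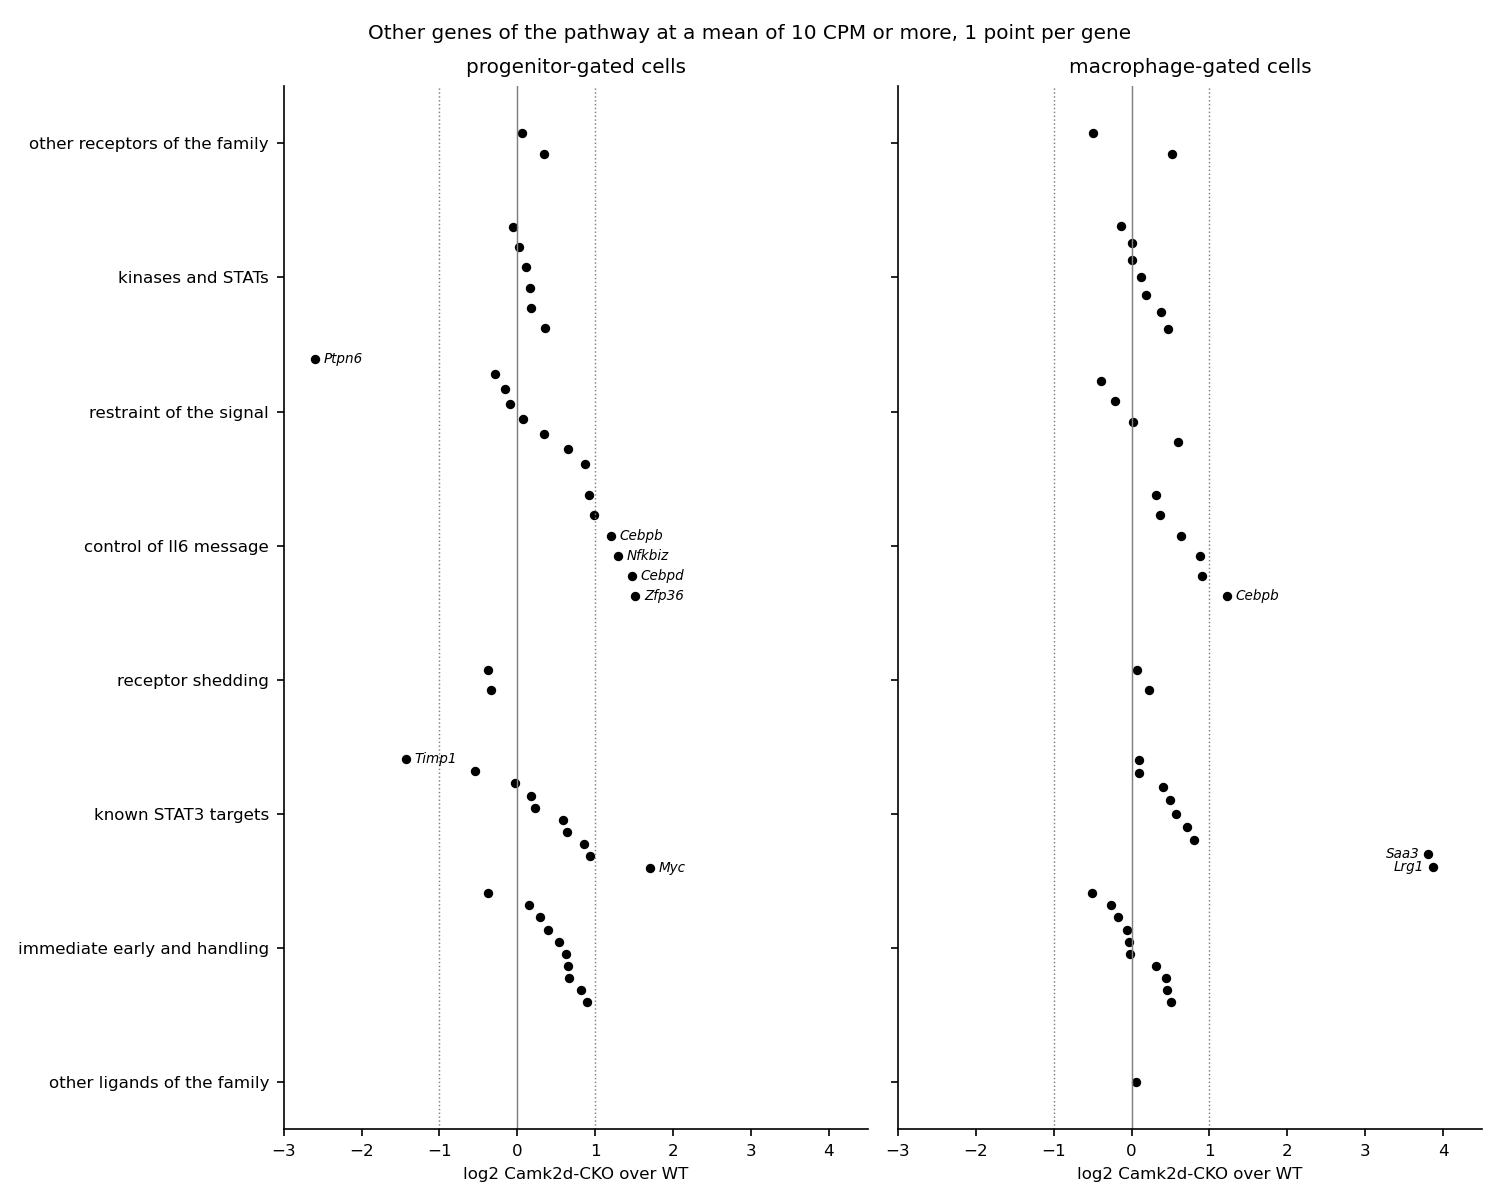
Log2 ratio of CPM, Camk2d-CKO over WT, of each listed pathway gene with a mean of at least 10 CPM, in progenitor-gated (left) and macrophage-gated cells (right), 1 point per gene, with the names of genes past 2-fold (dotted lines). In progenitors 4 regulators of the Il6 message lie past 2-fold, and in macrophages Lrg1 and Saa3 lie farthest right.

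In macrophages, the largest class of the targeted lineage, 2 of the 5 family genes over 10 CPM were at least 2-fold higher in the Camk2d-CKO library, Il6 and Osm, beside 1.14% higher and 1.18% lower over 7369 genes. Il6 stood at 46.0 CPM (42.9 to 49.3) in Camk2d-CKO and 5.18 CPM (4.23 to 6.28) in WT macrophages, a log2 ratio of 3.15 (2.86 to 3.46). Osm stood at 46.6 and 15.9 CPM, a log2 ratio of 1.55 (1.37 to 1.75). By depth bin the log2 ratio of Il6 lay between 0.70 and 4.48 and that of Osm between -0.46 and 2.91, each highest in the deepest bin. Much of both lay in a small number of cells, few of which were in the WT library.

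These cells were set apart, after their values had been seen, by at least 1 UMI each of Prg4 and Alox15 and at least 10 of both together. The macrophage gate held 34 of them in the Camk2d-CKO library (4.15% of the UMIs of the class) and 3 in the WT library (0.0788%). They were deep, with a median of 19635.5 UMIs in the Camk2d-CKO and 4904 UMIs in the WT library, and 33 of the 34 and all 3 fell in joint cluster 18. C1qa, a complement gene of macrophages, was detected in 32 of the 34. That cluster, formed without the 8 genes, was led by Prg4, Serpinb2, Alox15, Saa3, F5, Thbs1 and Lrg1, of which Prg4, Alox15 and F5 are well known from macrophages of the peritoneal cavity. No marker panel for such cells was set, so they are called here by Prg4 and Alox15. Whether they belong to the fat depot or to neighbouring tissue was not tested, which bears on the Il6, Lif and Osm levels of the whole macrophage class.

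The Prg4 and Alox15 cells of the Camk2d-CKO library held Il6 at a higher CPM than its progenitors did. The 34 Camk2d-CKO cells held 558 of the 807 macrophage Il6 UMIs (69.1%, 65.8 to 72.3), with 29 of 34 positive, a median of 11 and a highest cell of 68 UMIs. Their level was 767 CPM (705 to 834). They held 64 of 73 Lif UMIs (87.7%) at 88.0 CPM (67.8 to 112), and 362 of 818 Osm UMIs (44.3%) at 498 CPM (448 to 552). They held 0 Ptx3 UMIs, an interval of 0 to 5.07 CPM, while progenitors of that library held 0.631 Il6 UMIs per Ptx3 UMI. The 3 WT cells had 0 Il6, 4 Lif and 11 Osm UMIs among 15825 UMIs in all. Their Osm level was 695 CPM (347 to 1244), which did not differ from the Camk2d-CKO cells beyond counting error, and their Il6 interval ran from 0 to 233 CPM.

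**Figure D5:**
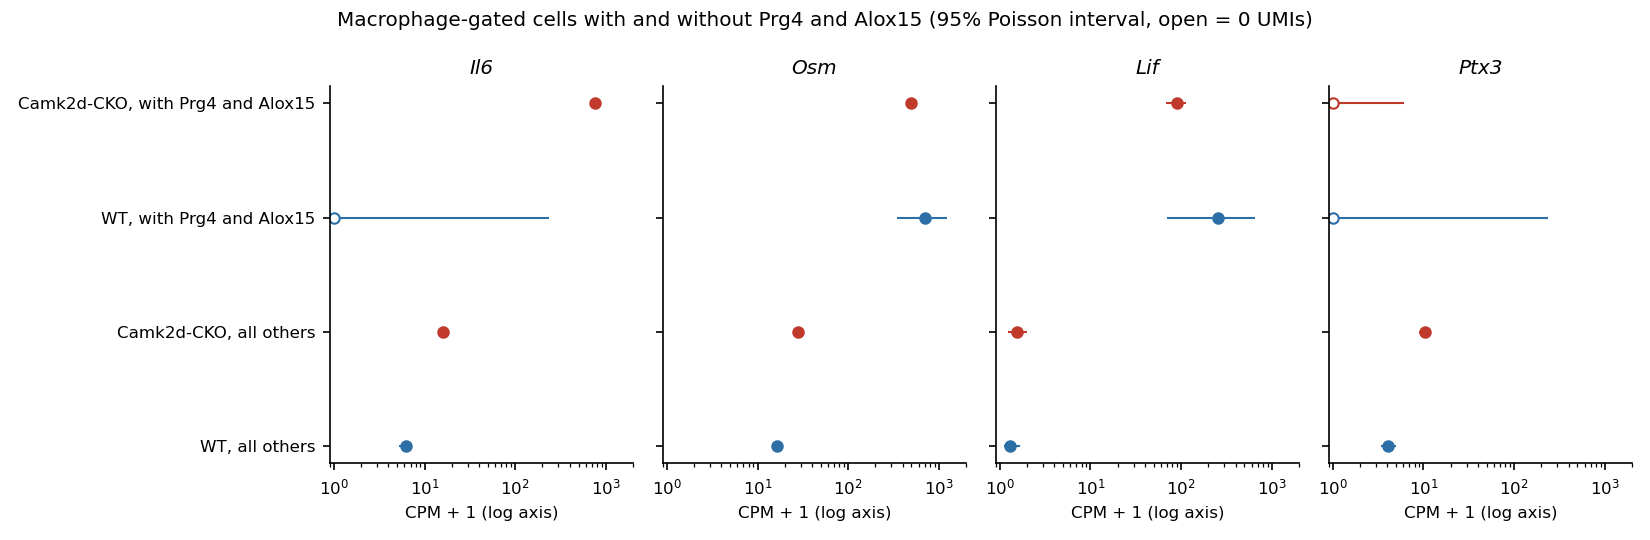
CPM + 1 on a log axis of Il6, Osm, Lif and Ptx3 in macrophage-gated cells with Prg4 and Alox15 (34 Camk2d-CKO and 3 WT cells) and in all other macrophage-gated cells, with 95% Poisson intervals; open points are 0 UMIs. In the Camk2d-CKO library Il6, Osm and Lif are higher in the Prg4 and Alox15 cells than in all other macrophages, and Ptx3 is at 0 in them.

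Without these cells the macrophage differences shrank. Il6 stood at 14.8 CPM in 1327 Camk2d-CKO cells and 5.18 CPM in 2492 WT cells, a log2 ratio of 1.51 (1.18 to 1.86), with a mean just under 10 CPM. Osm stood at 27.1 and 15.4 CPM, 1.77-fold (log2 0.82, 0.61 to 1.03), and no longer reached 2-fold. Lif stood at 0.535 and 0.299 CPM, on 9 and 6 UMIs. Il6, at 2.86-fold, and Ptx3, at 3.02-fold (9.34 and 3.09 CPM), were past 2-fold in the remaining macrophages, with means under the floor. Carried progenitor RNA, estimated in these remaining cells, would give 5.40 CPM of Il6 in the Camk2d-CKO and 2.88 CPM in the WT library, which are 36.4% and 55.6% of the levels seen. For Ptx3 it would give 91.6% and 119% of the levels seen.

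Il6ra was highest in resident macrophages, marked by Lyve1, Folr2 and Cd163. Osm stood at 49.9 CPM in Camk2d-CKO and 33.1 CPM in WT resident cells, and Il6ra at 163 and 178 CPM. Lipid-associated macrophages, marked by Trem2, Gpnmb and Cd9, held 52.0 CPM of Osm in Camk2d-CKO and 9.92 CPM in WT, and 81.4 and 61.0 CPM of Il6ra. Of the 34 Prg4 and Alox15 cells 31 lay in the lipid-associated gate, and without them that gate held 11.2 CPM of Osm in Camk2d-CKO and 9.29 CPM in WT, a log2 ratio of 0.27 whose interval (-0.17 to 0.71) includes 0. Resident cells made up 42.6% of the macrophages in the Camk2d-CKO library and 27.1% in the WT library, and lipid-associated cells 32.1% and 50.8%. Within resident cells neither Il6ra nor Socs3, at 520 and 566 CPM, was higher in the Camk2d-CKO library, while lipid-associated cells held 227 CPM of Socs3 in Camk2d-CKO and 106 CPM in WT. With equal weight for each of the 3 macrophage clusters the log2 ratio of Socs3 was 0.03, against 0.67 over the class.

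Among pathway genes in macrophages, Cebpb was at least 2-fold higher in the Camk2d-CKO library, at 780 CPM against 334 CPM in WT, as 1 of 6 regulators of the Il6 message (median log2 0.76 beside -0.10 over all genes, of which 1.14% were higher and 1.18% lower). Without the Prg4 and Alox15 cells Cebpb stood at 735 and 333 CPM. Of 9 STAT3 targets over 10 CPM 2 were higher, the acute-phase genes Lrg1, at 22.5 and 1.54 CPM, and Saa3, at 56.2 and 4.03 CPM. These too sat in the Prg4 and Alox15 cells, which held 373 of 395 Lrg1 UMIs and 920 of 986 Saa3 UMIs of the Camk2d-CKO class, and without them Lrg1 stood at 1.31 and 1.30 CPM and Saa3 at 3.93 and 1.15 CPM. None of the kinases and STATs, receptors, restraining genes or sheddases was 2-fold apart. The immediate early and handling genes summed to 8006 CPM in Camk2d-CKO and 7492 CPM in WT macrophages (median log2 -0.03).

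In the other classes few family genes reached both the floor and 2-fold. In T cells Il6 stood at 15.4 CPM (100 UMIs) in Camk2d-CKO and 6.19 CPM (24 UMIs) in WT, where 1.28% of 7500 genes were at least 2-fold higher and 6.03% lower, and where carried progenitor RNA would give 4.37 and 4.86 CPM. 49 of the 100 UMIs lay in 320 Cd4-positive cells (28.7 CPM), while the 49 Cd4-positive WT cells had none. Osm in monocytes was 2.41-fold higher, beside 2.93% of genes higher. In blood endothelial cells Il6ra was higher on 15 and 3 UMIs, beside 3.63% of genes higher and 6.28% lower. None of the 3 genes over the floor in dendritic cells was 2-fold apart, beside 1.19% of genes higher and 3.62% lower. None of the 3 in B cells was, beside 3.13% higher and 5.79% lower. In erythroid-gated cells Il6, Ptx3 and Osmr were at least 2-fold higher in the Camk2d-CKO library, beside 3.89% of genes higher and 20.4% lower, at 57.1 and 13.8 CPM for Il6, with progenitor markers there at 8.97% of their progenitor level in the Camk2d-CKO and 13.8% in the WT library.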

How the data were processed

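Droplet single-cell RNA-seq counts of 2 libraries were analysed, 1 Camk2d-CKO and 1 WT. The authors deposited raw UMI counts per gene and barcode, and per the submitters' processing notes mm10, Seurat 4.1.1 and Cell Ranger 5.0.0 were used, with no roles given. A barcode was kept from 500 UMIs and 200 genes upward unless over 20% of its UMIs were mitochondrial. Doublets were removed at a scanpy Scrublet score of 0.25, set after the automatic threshold called 451 Camk2d-CKO barcodes and 0 WT barcodes.

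Cells were assigned by marker panels that hold none of the 8 genes, and the gates were adjusted after they were first applied. For each class of a library, a gene's UMIs were summed and scaled to the total of that class (CPM). Levels have exact Poisson, ratios exact conditional and shares Clopper-Pearson 95% intervals. A gene counted as higher or lower past 2-fold at a mean of at least 10 CPM. The scripts were tested on simulated data.

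The 8 genes and the pathway lists were chosen with earlier results of these data known. Named list genes are those past 2-fold and the most abundant of each list. Arid5a, Zc3h12a, Stat3, Lifr, Adam17 and the Prg4 and Alox15 rule were added after values were seen. Alternatives were other gates, filters, scalings and weightings. Python 3.11.15, scanpy 1.11.5, scipy 1.17.1, numpy 2.4.6 and pandas 2.3.3 were used.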

Additional observations from a re-analysis of the deposited data

Results flagged for a closer look

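For 3 genes the libraries differed in opposite directions in different classes, with counting intervals that exclude 0, and these differences between classes were not tested. The log2 ratio of Camk2d-CKO over WT of Il6ra was 0.34 in macrophages as a class (-0.18 in their cluster 6) and -0.90 in B cells. That of Il6st was 0.19 in progenitors and -1.86 in natural killer cells, on 12 Camk2d-CKO and 34 WT UMIs. That of Osmr was 0.65 in progenitors and -1.62 in T cells, where its level was 1.85 CPM in Camk2d-CKO and 5.68 CPM in WT cells, under the 10 CPM floor. Carried progenitor RNA would give 2.03 CPM of Osmr in Camk2d-CKO and 5.92 CPM in WT T cells, 110% and 104% of those levels. For Il6st in natural killer cells it would give 3.46 CPM in Camk2d-CKO and 15.2 CPM in WT, 33.1% and 40.0% of the levels there.

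Kept barcodes that no gate took, 975 in the Camk2d-CKO library and 4777 in the WT library, stood outside every comparison above. In them the log2 ratio was 2.09 for Il6, 2.89 for Osm, 1.02 for Osmr and 2.43 for Ptx3. In the Camk2d-CKO library 25 of these barcodes met the Prg4 and Alox15 rule, and none did in the WT library. Without those barcodes Il6 stood at 76.3 CPM in the Camk2d-CKO and 26.5 CPM in the WT library, Osm at 11.8 and 8.26 CPM, Osmr at 53.8 and 25.3 CPM, and Ptx3 at 136 and 23.7 CPM.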

How the results depend on the processing

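No paired analysis was possible because each genotype has 1 library, and no replicate could be left out. Across 11 ratios and 12 alternatives none of 132 values was counted as reversed, while 35 moved by more than the counting interval. The progenitor log2 ratio of Il6ra, -0.01 in the main analysis, lay between -0.09 and 0.08 and so took both signs. In progenitors the log2 ratio lay between 1.74 and 2.14 for Il6, 2.02 and 2.45 for Ptx3 and 0.58 and 1.07 for Socs3. In macrophages it lay between 1.28 and 4.15 for Il6, 0.61 and 2.10 for Osm, 0.03 and 0.78 for Socs3 and 0.03 and 0.44 for Il6ra. At 1.5-fold 4 family genes were higher in progenitors in place of 2. No share over all genes at 1.5-fold is given beside that count, so nothing is read from it. In macrophages 1 family gene was higher with equal weight per joint cluster and 0 without the Prg4 and Alox15 cells, in place of 2. Both alternatives were chosen after seeing the data. The progenitor share of Il6 was 88.8% with joint clustering and 96.2% without those cells in the Camk2d-CKO library, and 87.8% under a stricter gate and 78.5% by mean per-cell CPM in WT. The progenitor share of Lif was 58.7% with joint clustering and 87.2% without those cells in the Camk2d-CKO library, and 58.0% by per-cell CPM in WT. The macrophage share of Osm was 78.8% under the stricter gate, 87.2% with joint clustering, 69.1% without those cells and 60.3% by per-cell CPM in the Camk2d-CKO library, and 71.8% under the stricter gate and 54.3% by per-cell CPM in WT. The share of progenitors with Il6 was 17.6% in Camk2d-CKO and 5.51% in WT thinned to 1000 UMIs, and 44.6% and 17.3% unthinned, where thinning itself removes UMIs. Pathway genes lower in progenitors numbered 1 under the stricter gate and 1 with joint clustering, in place of 2, and those higher in macrophages 1 without the Prg4 and Alox15 cells, in place of 3. Over all genes in the main analysis, 2.84% were lower in progenitors and 1.14% higher in macrophages. Apart from construction, the cause was not tested. Depth limits Lif and the natural killer, monocyte and blood endothelial values.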

Other observations

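Relatives of the family were also detected in immune classes. Ebi3, a subunit of interleukin 27, stood at 21.0 CPM (51 UMIs) in Camk2d-CKO and 65.0 CPM (231 UMIs) in WT B cells, at 32.1 and 22.6 CPM in dendritic cells, and at 18.5 CPM (325 UMIs) and 17.8 CPM (357 UMIs) in macrophages. Il27ra, the interleukin 27 receptor chain that pairs with the shared chain, stood at 42.8 CPM in Camk2d-CKO and 28.1 CPM in WT T cells. Clcf1, a ligand that signals through the shared chain, stood at 24.4 CPM in Camk2d-CKO and 33.6 CPM in WT natural killer cells, with overlapping intervals.

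Some classes were too small to compare. Neutrophil-gated cells held 17 Osm UMIs in 22 Camk2d-CKO cells and 0 in 4 WT cells. Mural-gated cells held 25 Il6 UMIs in 21 Camk2d-CKO cells and 0 in 17 WT cells. ILC2-gated (innate lymphoid) cells held 6 Il6 UMIs in 25 Camk2d-CKO cells and 16 in 34 WT cells, and mast-gated cells held 2 in 39 Camk2d-CKO cells and 12 in 53 WT cells. The log2 ratio, Camk2d-CKO over WT, was -1.48 in ILC2-gated cells, with an interval (-3.12 to -0.06) that excludes 0, and -1.96 in mast-gated cells, with one (-5.16 to 0.21) that includes it, on few UMIs in both. All 16 WT ILC2 UMIs of Il6 lay in 1 cell.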
